A study of Mus musculus with 8 samples.

Results

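Chemokines are small secreted proteins that steer the migration of leukocytes, and they act through receptors of the G protein-coupled class on the migrating cells. They are grouped by the spacing of their first cysteines into the CC, CXC, CX3C and XC families, and the receptors carry the name of the family they bind. In the liver they are made by hepatocytes, Kupffer cells (the resident macrophages), the sinusoidal endothelium and stellate cells, and they place T cells, natural killer cells, monocytes and neutrophils in the tissue. The genes described here are those whose symbol begins with Ccl, Cxcl, Cx3cl, Xcl, Ccr, Cxcr, Cx3cr or Xcr followed by a digit. The rule found 52 of the 19937 genes with a probe set of their own, 34 of them ligands and 18 receptors. The Ccl21 and Ccl27 genes share probe sets with near copies and are described apart.

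The arrays measured total RNA of 4 control livers and 4 c-MYC liver tumours of mice, with 1 array per sample. The tumours were driven by human c-MYC expressed in the liver from the CEBPB-LAP promoter under doxycycline control, a promoter that is active in hepatocytes, and were collected at the humane endpoint. The control livers were normal livers of matched mice. Whether those mice carried the transgene or were exposed to doxycycline is not given, since the labels attach the same transgene description to every sample. Strain, age and sex are not given, and the samples are not tied to individual mice, so the tests speak only of how far these 8 samples spread. All values are log2 expression values, all changes are tumours minus controls, and a gene was called where limma gave an adjusted p under 0.05 (Benjamini-Hochberg over all 19937 genes).

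Control liver 3 stood apart from the other arrays, with Xist at 11.89 against at most 7.12 elsewhere, and 3 Y-linked genes at 3.46 to 5.39 against at least 7.62 elsewhere. Genes of the Y chromosome that read so low served to mark what an array shows without a transcript, and a gene with a group mean above 5.39 is called above the dim range. Control liver 1 had the highest values of 7 of 8 neutrophil markers, as described with Cxcl1. Hepatocyte markers were present in both groups, with 8 of 8 above the dim range in the tumours and all 8 called lower there by limma, Alb among them (log2 change -0.52).

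Of the 52 chemokine and receptor genes, 43 had a mean above the dim range in the control livers and 38 in the tumours. Of all 19937 genes, 16227 did in the control livers and 15918 in the tumours. The 9 genes in the dim range in both groups were the ligands Ccl8, Ccl12, Cxcl2, Cxcl3, Cxcl5 and Cxcl15 and the receptors Ccr1, Ccr8 and Cxcr5. None of these 9 is shown to be expressed in either group. The 5 genes above the dim range in the controls alone, against 555 of all genes, were all receptors, and none of the 5 was called. They were Cxcr2 (mean of 5.65 in controls, 4.91 in tumours), Ccr9 (5.45 and 5.13), Xcr1 (5.65 and 5.39, just under the unrounded bound), Ccr6 (5.42 and 5.22) and Ccr1l1 (5.55 and 5.38). Ccr6 in the controls lay just inside the bound, and Ccl8, at 5.38 there, just outside it. Under a stricter bound of 6.18, the 95th percentile of values of 1194 olfactory and vomeronasal receptor genes, 27 of the 52 were above it in the controls and 25 in the tumours.

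Most chemokine and receptor genes did not pass the test. Limma called 9 of the 52 (17.3%), where it called 28.9% of all genes. The genes lower in the tumours were Ccl9, Cxcl9, Cxcl11, Cxcl12, Cxcl17 and Ccl24 among the ligands and Cxcr6 among the receptors, or 13.5% of the 52 against 12.7% of all genes. The 2 genes higher in the tumours were the ligand Cxcl10 and the receptor Cxcr4, or 3.85% of the 52 against 16.2% of all genes. The median log2 change was -0.08 over the 52 genes and -0.04 over all genes. The groups did not overlap for 8 of the 52 (15.4%), against 30.2% of all genes. The tumours were entirely higher for 1 of the 52, Cxcr4 (16.3% of all genes), and entirely lower for 7 (13.9% of all genes). Those 8 were the called genes other than Cxcl9 and Cxcl10, together with Ccr6. Tested against a change of 1.5-fold in place of 0, Ccl9 alone of the 52 passed, where 8.62% of all genes did.

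**Figure D1:**
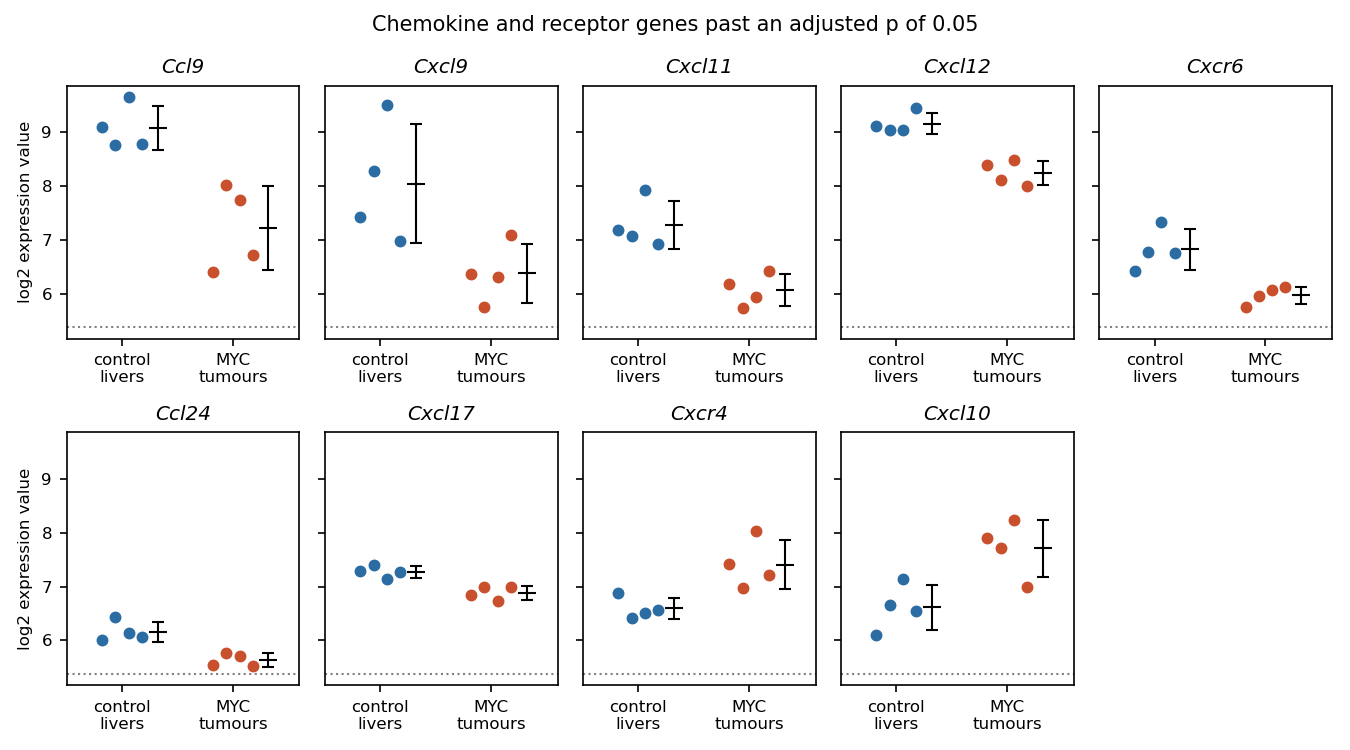
Log2 expression values (vertical axis) of the 9 called genes on each of the 8 arrays. Each point is an array, black marks show a group's mean with its SD (n = 4), and the dotted line is the dim bound of 5.39. The tumours lie below all controls for Ccl9, Cxcl11, Cxcl12, Cxcr6, Ccl24 and Cxcl17 and above them for Cxcr4, while Cxcl9 and Cxcl10 overlap.

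The ligands of CXCR3 moved in opposite directions. Cxcl9, Cxcl10 and Cxcl11 are induced by interferon gamma, and CXCL9 and CXCL10 attract activated T cells and natural killer cells through CXCR3. In the RefSeq gene table Cxcl10 lies next to Cxcl11, with 1 gene, Art3, between it and Cxcl9. The windows of 250 bases before the annotated starts of Cxcl10 and Cxcl9 (RefSeq, GRCm38.p6) are shown because these neighbours changed in opposite directions. Capitals mark matches, on either strand, to the interferon-response core (GAAA, any 2 bases, GAAA), the kappaB motif (GGGA, any 2 bases, TTCC), the GAS motif TTCNNNGAA, the E-box CACGTG and the GC box GGGCGG.
Cxcl10, chr5:92348890-92349139, minus strand: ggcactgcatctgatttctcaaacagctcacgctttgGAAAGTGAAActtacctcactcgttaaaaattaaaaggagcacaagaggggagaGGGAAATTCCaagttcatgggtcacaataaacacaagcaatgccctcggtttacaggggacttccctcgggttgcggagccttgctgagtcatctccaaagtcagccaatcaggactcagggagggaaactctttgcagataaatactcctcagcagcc
Cxcl9, chr5:92328080-92328329, minus strand: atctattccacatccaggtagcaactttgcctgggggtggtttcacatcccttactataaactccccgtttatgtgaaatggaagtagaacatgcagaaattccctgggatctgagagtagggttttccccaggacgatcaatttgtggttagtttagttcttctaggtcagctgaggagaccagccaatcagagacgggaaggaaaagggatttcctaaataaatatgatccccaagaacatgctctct

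The Cxcl10 window held GAAAGTGAAA at 213 to 204 bases and GGGAAATTCC at 159 to 150 bases before the start. The Cxcl9 window held none of the 5 motifs in these letters. Variants of these letters were not searched for, so the Cxcl9 window may hold other forms of the motifs. The interferon-response core was found in 2.98% of all 32851 windows of this length and the kappaB motif in 1.21%. Of the 52 genes, 38 had such a window, with 40 windows in all. The interferon-response core stood in 3 of the 40 (Cxcl10, Cxcl14 and Ccl19) and the kappaB motif in 6 (Cxcl1, Cxcl2, Cxcl3, Cxcl10, Ccl1 and Ccr3). The matches are descriptions of sequence and were not tested for use in these samples.

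Cxcl10 read 6.11, 6.66, 7.14 and 6.54 in control livers 1 to 4 and 7.90, 7.72, 8.23 and 6.99 in tumours 1 to 4. It was higher in tumours 1 to 3 than in any control, while tumour 4 lay inside the range of the controls. The mean rose from 6.61 ± 0.43 to 7.71 ± 0.52 (SD, n = 4 and 4), a 2.14-fold rise (log2 change 1.10, SE 0.27, limma adjusted p = 0.0109).

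Cxcl9 read 7.43, 8.27, 9.50 and 6.98 in the controls and 6.37, 5.76, 6.31 and 7.09 in the tumours. Tumour 4, the lowest tumour for Cxcl10, was the highest for Cxcl9 and lay above control liver 4. The log2 change was -1.67 (SE 0.48, limma adjusted p = 0.0242), from 8.05 ± 1.11 to 6.38 ± 0.55 (SD, n = 4 and 4). The call was lost without control liver 2 (adjusted p = 0.0648), tumour 1 (0.0544), tumour 2 (0.0676) or tumour 3 (0.0562) and with an intensity trend and robust variance (0.0646), and without control liver 3, the highest control, the change was -1.18.

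Cxcl11 read 7.19, 7.09, 7.93 and 6.93 in the controls and 6.18, 5.74, 5.95 and 6.42 in the tumours. All 4 tumours lay below all 4 controls, with a log2 change of -1.21 (SE 0.22, limma adjusted p = 0.0017). The RefSeq table lists mouse Cxcl11 as a transcribed pseudogene, so the value is one of RNA only. Control liver 3, which carries the high Xist, was the highest control for all 3 genes.

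The comparison within each array sets the neighbours against each other. Cxcl10 minus Cxcl9 was -1.33, -1.61, -2.36 and -0.44 in the controls and 1.53, 1.96, 1.92 and -0.10 in the tumours. All 4 tumours were above all 4 controls. The means of the groups differed by 2.76. Cxcl10 minus Cxcl11 went from -0.67 ± 0.33 to 1.64 ± 0.75 (SD, n = 4 each), and Cxcl9 minus Cxcl11 differed by -0.45. The pairs were chosen because their genes had been called in these same groups, so the differences are a description with no test. Their receptor Cxcr3 read 6.47 to 6.69 in the controls and 6.01 to 6.54 in the tumours (log2 change -0.31, 95% interval -0.58 to -0.04, limma adjusted p = 0.0831).

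**Figure D2:**
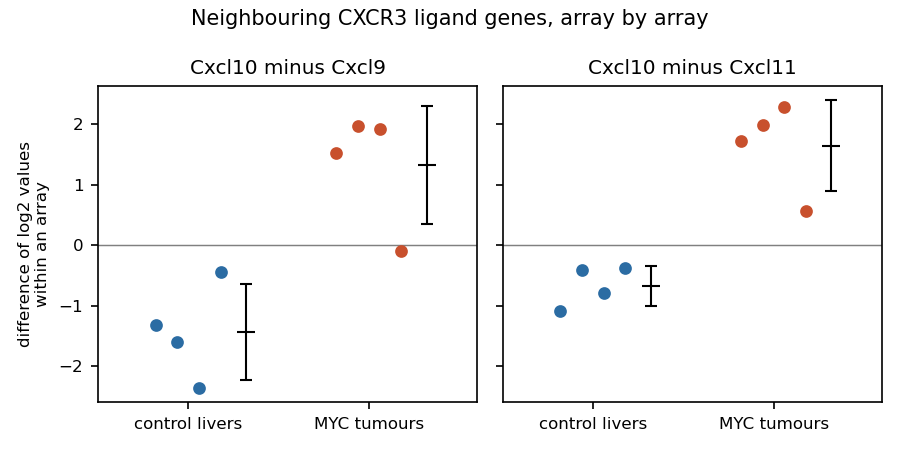
Difference of log2 values within an array (vertical axis) for Cxcl10 minus Cxcl9 and Cxcl10 minus Cxcl11. Each point is an array, and black marks show a group's mean with its SD (n = 4). All tumours lie above all controls in both panels, and tumour 4 is the lowest tumour at -0.10 and 0.57.

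In the same arrays, markers of the cells that carry CXCR3 were also measured. None of 8 measured T cell markers and none of 7 natural killer cell markers passed limma, and 0 of the 8 and 0 of the 7 had an unadjusted p under 0.05, which 37.7% of all genes had. The summed linear value of the T cell markers was 497 to 597 in the controls and 478 to 558 in the tumours. Cd3d, Cd3g, Cd4, Cd8b1 and Cd28 had means under the stricter bound of 6.18 in both groups. The T cell sum therefore cannot tell whether the content of T cells differed. For the natural killer cell markers the summed value was 283 to 404 in the controls and 300 to 313 in the tumours. Their defining markers Ncr1 and Klrb1c, and Eomes as well, lay in the dim range on every array. Gzmb had a mean in the dim range in the controls (5.37) and Klrk1 in the tumours (5.03). With so many dim values this sum cannot tell whether the content of natural killer cells differed. The inducers Ifng (log2 change -0.17) and Irf1 (-0.51) did not pass, and neither did Tnf (-0.08). In bulk tissue, fewer cells of a type and less RNA per cell cannot be told apart.

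Cxcl12 and its receptor Cxcr4 also changed in opposite directions. CXCL12 is made mainly by stromal and endothelial cells and retains CXCR4-bearing blood and stem cells in tissues. Their windows of 250 bases before the start are shown as the ligand and receptor pair that moved apart, with capitals marking the GC box GGGCGG on either strand, which was found in 32.7% of all windows.
Cxcl12, chr6:117168285-117168534, plus strand: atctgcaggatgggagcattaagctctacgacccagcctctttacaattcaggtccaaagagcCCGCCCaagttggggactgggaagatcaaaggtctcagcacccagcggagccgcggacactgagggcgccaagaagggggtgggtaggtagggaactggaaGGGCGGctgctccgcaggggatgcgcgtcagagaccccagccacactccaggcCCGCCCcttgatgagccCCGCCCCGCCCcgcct
Cxcr4, chr1:128592300-128592549, minus strand: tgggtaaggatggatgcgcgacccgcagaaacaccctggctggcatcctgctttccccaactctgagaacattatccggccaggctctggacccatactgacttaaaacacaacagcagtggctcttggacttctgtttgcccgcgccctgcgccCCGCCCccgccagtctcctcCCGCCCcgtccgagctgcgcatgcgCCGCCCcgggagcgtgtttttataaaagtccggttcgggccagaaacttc

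The Cxcl12 window held 5 GC boxes, of which the last pair overlap, and the Cxcr4 window held 3. Neither window held CACGTG, the E-box that MYC can bind, which stood in 6.02% of all windows and, among the 40 windows of these genes, in those of Cxcl3 and Xcr1. Cxcl12 read 9.13, 9.04, 9.04 and 9.45 in the controls and 8.40, 8.11, 8.48 and 8.01 in the tumours. All tumours lay below all controls, with 9.16 ± 0.20 against 8.25 ± 0.23 (SD, n = 4 and 4; log2 change -0.91, SE 0.14, limma adjusted p = 0.00057).

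Cxcr4 read 6.88, 6.42, 6.52 and 6.56 in the controls and 7.41, 6.97, 8.04 and 7.22 in the tumours. All tumours were above all controls, with tumour 3 the highest, and the mean rose 1.76-fold (log2 change 0.81, SE 0.21, limma adjusted p = 0.0127). Ackr3, the atypical receptor that binds CXCL12 and removes it, read 5.66 to 5.93 in the controls and 5.95 to 6.44 in the tumours (log2 change 0.35, limma adjusted p = 0.0557). Of the markers of sinusoidal endothelium, 5 of 7 were lower and none higher, with Clec4g changing by -2.71 (SE 0.15). Lyve1, of the same list, changed by 0.22 without passing. Their summed linear value was 1344 to 2079 in the controls and 527 to 695 in the tumours. Of 6 markers of general endothelium, 3 were lower and none higher, with a median log2 change of -0.18. Pecam1, Cdh5 and Tie1 changed by 0.34, -0.05 and 0.02 without passing. The summed value of the general endothelial list was 645 to 1011 in the controls and 579 to 835 in the tumours. Of 9 stellate cell and fibroblast markers, 3 were lower and 1 higher, with a median log2 change of -0.05. Reln, Lrat and Dcn changed by -1.66 (SE 0.13), -1.64 (SE 0.28) and -1.46 (SE 0.40), and the collagen gene Col1a2 rose by 0.30 (SE 0.10). Acta2, Pdgfrb and Col3a1 changed by 0.72, 0.18 and 0.16 without passing, and Des and Col1a1 by -0.10 and -0.05. The summed value of the stellate and fibroblast list was 2576 to 3693 in the controls and 1273 to 2720 in the tumours. Dcn was the brightest gene of that list in both groups (means of 10.97 and 9.51). The sum is thus weighted to Dcn and does not show a fall of the whole list. The part of these cell types in the lower Cxcl12 was not tested.

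Cxcr6, a receptor that keeps T and natural killer T cells in the liver sinusoids, read 6.43, 6.78, 7.34 and 6.76 in the controls and 5.77, 5.96, 6.07 and 6.12 in the tumours. All tumours lay below all controls (log2 change -0.85, SE 0.18, limma adjusted p = 0.0039). Its ligand Cxcl16, a membrane-bound chemokine of macrophages and endothelium, read 5.85 to 6.27 in the controls and 5.89 to 6.91 in the tumours. The change of Cxcl16 was 0.08 (95% interval -0.40 to 0.55). The 8 T cell markers changed by -0.45 (Cd3g) to 0.21 (Cd3d, in the dim range in both groups), 4 in each direction, and none passed. With most of them under the stricter bound of 6.18, they cannot tell whether T cell content differed.

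Among the CC ligands, Ccl9 showed the largest change. CCL9 and CCL6 are myeloid chemokines of rodents that act on CCR1, and the genes lie next to each other. Ccl9 read 9.10, 8.77, 9.65 and 8.79 in the controls and 6.41, 8.03, 7.75 and 6.73 in the tumours. All tumours lay below all controls, tumours 1 and 4 the furthest, and the mean went from 9.08 ± 0.41 to 7.23 ± 0.78 (SD, n = 4 and 4), a 3.60-fold fall (log2 change -1.85, SE 0.35, limma adjusted p = 0.0022).

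Ccl6, the neighbour, read 6.93, 6.64, 7.06 and 6.67 in the controls and 6.85, 8.21, 8.39 and 7.30 in the tumours. Tumours 2, 3 and 4 lay above all controls and tumour 1 among them, and the log2 change of 0.87 (SE 0.30) did not pass (limma adjusted p = 0.0556). It passed without tumour 1 (1.15, adjusted p = 0.0071). For both genes tumours 2 and 3 were the highest tumours. Their shared receptor Ccr1 was in the dim range in both groups (4.31 ± 0.33 and 4.32 ± 0.23; SD, n = 4 and 4).

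Macrophage markers were mixed in the same arrays. Of 12 measured, 4 were higher and 3 lower, with Cd68, a lysosomal macrophage protein, rising 4.31-fold and Vsig4, a complement receptor of Kupffer cells, changing by -2.38 (SE 0.50). Among genes typical of Kupffer cells, Clec4f was lower as well (-1.75, SE 0.18), Cd5l rose by 0.79 (SE 0.24), and Timd4 changed by 0.51 without passing (limma adjusted p = 0.118). The summed value of the 12 markers was 2813 to 4976 in the controls and 2448 to 4000 in the tumours. Vsig4 was the brightest of them in the controls (mean of 10.47) and Cd68 in the tumours (9.70). As these genes changed in opposite directions, the sum cannot tell whether macrophage content differed. The part of macrophages in the change of Ccl9 was not tested.

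Ccl24 and Cxcl17 changed less. Ccl24, an eosinophil chemokine that acts through CCR3, read 6.00, 6.43, 6.14 and 6.06 in the controls and 5.55, 5.77, 5.71 and 5.52 in the tumours. The tumours lay below the controls by 0.52 on the log2 scale (change -0.52, SE 0.12, limma adjusted p = 0.0065), with both means under the stricter bound of 6.18. Its receptor Ccr3 was 6.57 to 7.33 in the controls and 6.64 to 7.21 in the tumours (limma adjusted p = 0.4715). Cxcl17, a mucosal chemokine, read 7.28, 7.41, 7.14 and 7.27 in the controls and 6.84, 7.0, 6.73 and 6.99 in the tumours (log2 change -0.39, SE 0.10, limma adjusted p = 0.0159). The groups did not overlap, and the call was lost without tumour 3 (adjusted p = 0.0547).

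**Figure D3:**
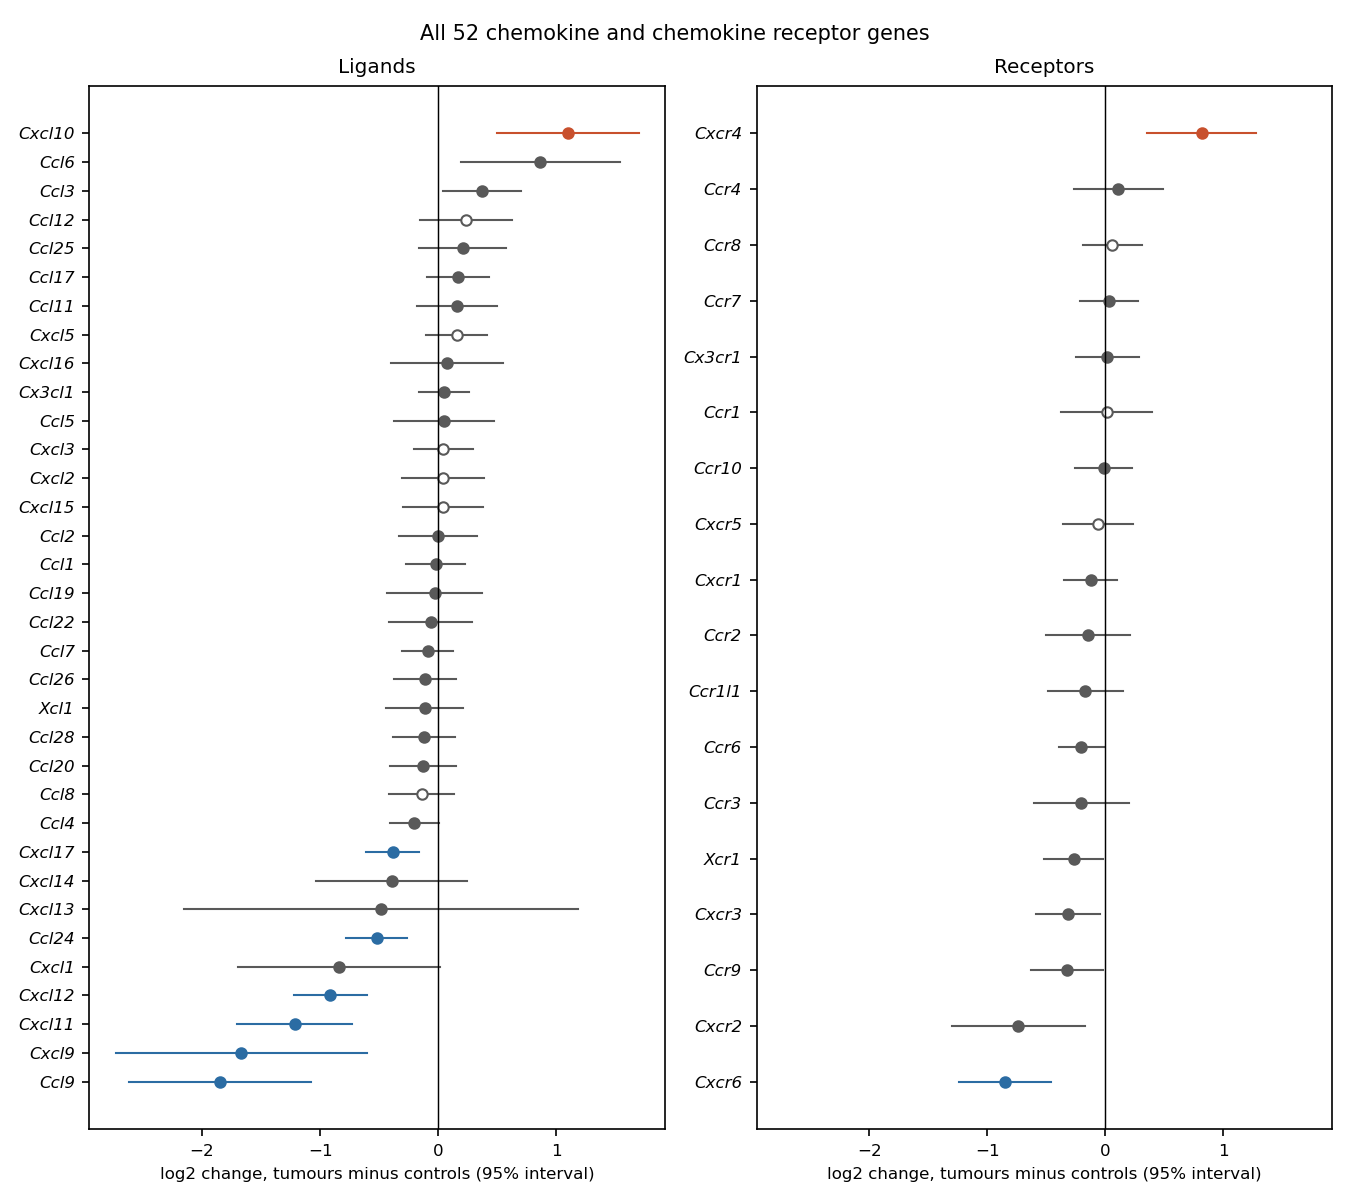
Log2 change (tumours minus controls, horizontal axis) with its 95% interval from limma for the 34 ligands and 18 receptors. Red marks genes called higher, blue genes called lower, grey genes that did not pass, and open points the 9 genes in the dim range in both groups; the intervals run widest for Cxcl13, Cxcl9 and Cxcl1.

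Among the neutrophil-attracting ligands of CXCR2, Cxcl2, Cxcl3 and Cxcl5 were in the dim range in both groups, and Cxcl1 was highest on a single array. Cxcl1 read 9.59 in control liver 1, while the remaining controls lay at 7.49 to 7.79, against 7.06 to 7.58 in the tumours. The log2 change of -0.84 (SE 0.39) did not pass (limma adjusted p = 0.141), and without control liver 1 it was -0.36 (adjusted p = 0.0928). Control liver 1 was also the highest for Cxcr2, at 6.14, with 5.28 to 5.74 among the remaining controls and 4.17 to 5.28 in the tumours (log2 change -0.74, limma adjusted p = 0.0524). Without control liver 1 the change was -0.57 (adjusted p = 0.132), and it passed without control liver 4 (-0.86, 0.0389) or tumour 2 (-0.86, 0.0412). Cxcl14, a chemokine of epithelia, was also highest in control liver 1, at 7.68 against 6.19 to 6.55 in the other controls and 6.12 to 6.53 in the tumours. Without that liver its change was -0.05 in place of -0.39.

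Of 8 neutrophil markers, 7 were highest on the same array and Camp was not, at 6.09 there and 6.44 in control liver 2. S100a8, S100a9 and Retnlg read 7.62, 8.25 and 7.35 in control liver 1, where the other controls lay at 5.24 to 5.51, 6.21 to 6.43 and 5.05 to 5.38. The summed value of the 8 neutrophil markers came to 956 on that array, 354 to 398 on the remaining controls and 325 to 489 in the tumours. Their part in the values of Cxcl1 and Cxcr2 was not tested. Ly6g, Ngp and Mmp8, of the same list, had group means in the dim range in both groups.

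Cxcl13, which guides B cells into follicles through CXCR5, was set by a single tumour. It read 6.58, 7.37, 7.37 and 6.66 in the controls and 5.69, 9.35, 5.72 and 5.28 in the tumours. Tumour 2 was the highest of all arrays, and the other 3 tumours lay below all controls. Over all arrays the log2 change of -0.48 did not pass (SE 0.75, limma adjusted p = 0.6988), while without tumour 2 it was -1.43 (adjusted p = 0.0013). In tumour 2 the monocyte genes Chil3 and F13a1 read 8.22 and 7.32, against 4.47 to 4.97 and 5.43 to 5.78 in the other tumours. Fn1, of the same list, was also highest among the tumours in tumour 2, at 10.9 against 9.4 to 10.3, with all tumours below all controls. The monocyte markers Plac8 and Ms4a6c were not highest in tumour 2, where they read 8.65 and 7.09, against 8.62 to 8.94 and 6.83 to 7.89 in the other tumours. The B cell markers Cd79a and Ms4a1 read 4.40 and 5.20 in tumour 2 and had means in the dim range in both groups, as had Cxcr5. Cd79b and Mzb1, of the same list, had means above the dim range in both groups. They read 6.13 and 6.20 in tumour 2 and were not highest there. Jchain, in the dim range in both groups, was called lower in the tumours (log2 change -0.48, SE 0.15). The part of these cells in the value of tumour 2 was not tested.

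**Figure D4:**
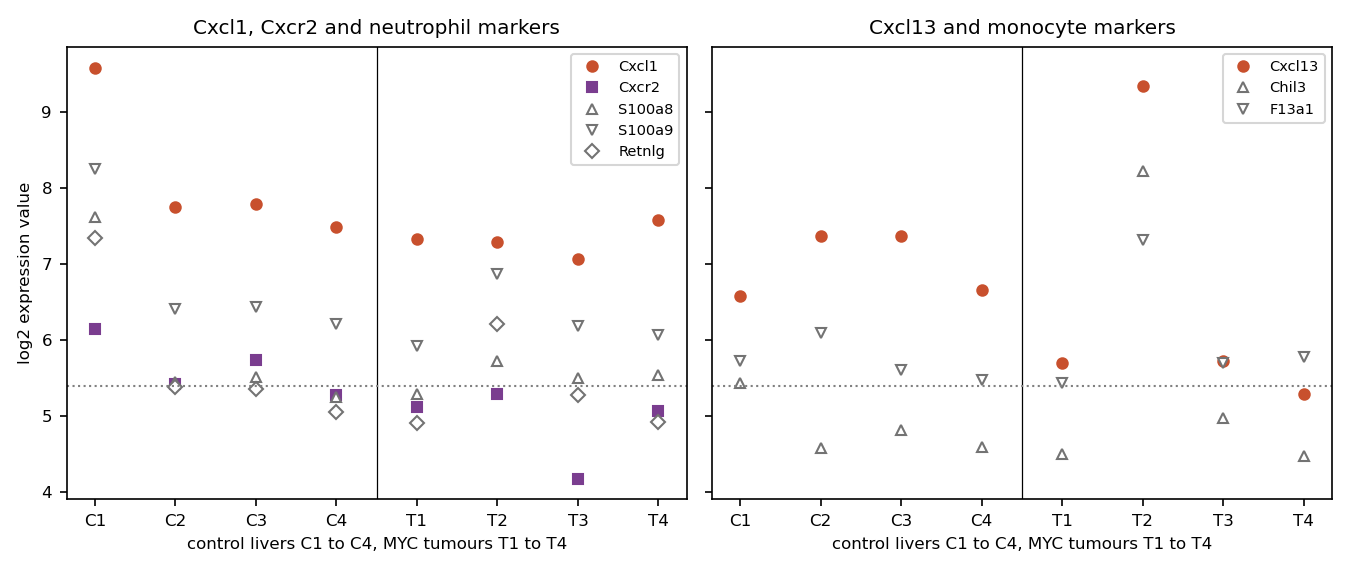
Log2 expression values (vertical axis) on the 8 arrays, with Cxcl1, Cxcr2 and neutrophil markers on the left and Cxcl13 and monocyte markers on the right. Each point is an array, and the dotted line is the dim bound of 5.39. Control liver 1 holds the highest Cxcl1 (9.59) and S100a9 (8.25), and tumour 2 the highest Cxcl13 (9.35) and Chil3 (8.22).

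The other inflammatory CC ligands showed small differences. Ccl2, the main monocyte attractant, read 6.16 to 6.66 in the controls and 6.01 to 6.57 in the tumours (log2 change 0.00, 95% interval -0.33 to 0.33). Its receptor Ccr2 read 5.44 to 6.05 and 5.18 to 5.79 (change -0.15, interval -0.51 to 0.21). Ccl5, which attracts T cells, read 6.96 to 7.86 and 7.10 to 7.68 (change 0.05, interval -0.37 to 0.47). Ccl3 and Ccl4, made by activated macrophages and T cells, changed by 0.37 (limma adjusted p = 0.0918) and -0.20 (0.139). Ccl3 passed without control liver 3 (0.48, adjusted p = 0.0293). The interval lay within a 2-fold change in either direction for 29 of the 34 genes that were above the dim range and not called. It did so for 16361 of all 19937 genes, and for all 9 genes in the dim range in both groups. Of the 34 genes, 21 had a mean above the stricter bound of 6.18 in either group. Ccr2 lay under that bound on every array. For genes under it, a narrow interval does not show a measured lack of change.

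Several chemokines and receptors of lymphoid and epithelial tissue were not called, while Ccl19, Ccl21, Ccl27 and Cxcl13 are described apart. Ccl25, a ligand of CCR9, read 7.16 to 7.70 in the controls and 7.42 to 8.05 in the tumours (log2 change 0.21, interval -0.16 to 0.57). Ccr7, the receptor that leads dendritic cells and T cells to lymph nodes, read 7.42 to 7.79 and 7.48 to 7.76 (change 0.03, interval -0.21 to 0.28). Cx3cl1, or fractalkine, changed by 0.05 (interval -0.16 to 0.26) and its receptor Cx3cr1 by 0.02 (interval -0.25 to 0.28). Xcl1 changed by -0.11 (interval -0.44 to 0.21) and its receptor Xcr1, a marker of cross-presenting dendritic cells, by -0.27 (limma adjusted p = 0.1102). Clec9a, of the same dendritic cells, changed by -1.38 (SE 0.24), and it was the only 1 of 7 dendritic cell markers that passed. The remaining uncalled ligands Ccl1, Ccl7, Ccl11, Ccl17, Ccl20, Ccl22, Ccl26 and Ccl28 changed by -0.13 to 0.17. The receptors Ccr4, Ccr10 and Cxcr1 changed by -0.12 to 0.11. Ccl1, Ccl7, Ccl17, Ccl22, Ccl26, Ccl28 and Ccr4 had means under the stricter bound of 6.18 in both groups. For these genes no lack of change was measured.

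None of the 10 CC receptors passed limma, where 28.9% of all genes did. Of them, 2, Ccr6 and Ccr9, had an unadjusted limma p under 0.05, both with lower values in the tumours, where 37.7% of all genes did. Only Ccr3, Ccr7 and Ccr10 had means above the stricter bound of 6.18. For the other CC receptors the lack of calls does not show a measured lack of change. Ccr6 read 5.32 to 5.46 in the controls and 5.15 to 5.27 in the tumours. The groups did not overlap, and the dim bound of 5.39 ran through the controls.

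Ccl19, a ligand of CCR7, had 4 probe sets that did not give the same result. The brightest, which stands for the gene here, read 9.34 ± 0.33 in the controls and 9.31 ± 0.27 in the tumours (SD, n = 4 and 4), and 2 others differed by -0.01 and -0.14. The remaining probe set read 9.74, 10.51, 7.56 and 9.75 in the controls and 7.34, 6.45, 7.78 and 7.11 in the tumours, a difference of -2.22. With the mean of the 4 probe sets Ccl19 passed (limma adjusted p = 0.0336). The mouse genome holds near-identical Ccl19 copies, and which of them each probe set reads was not tested, so the direction of Ccl19 is uncertain.

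The Ccl27 and Ccl21 genes, ligands of CCR10 and CCR7, have probe sets that name several near copies, and none is among the 52. The Ccl27 probe set above the dim range read 7.57, 7.70, 7.97 and 8.13 in the controls and 7.01, 7.15, 7.18 and 7.26 in the tumours, without overlap. The Ccl21 probe set read 6.45 to 6.66 in the controls and 6.24 to 6.38 in the tumours, also without overlap. They were not part of the fit.

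Other genes of the chemokine system were taken from 5 lists chosen by role, with 75 of 85 entries measured. Of these, 10 were higher and 10 lower, or 26.7% against 28.9% of all genes, with a median log2 change of -0.01 against -0.04 over all genes. Genes that process or present chemokines were called in 7 of 11 cases, 2 higher and 5 lower, with a list median of -0.04. Dpp4, a membrane peptidase that trims and inactivates CXCL9, CXCL10, CXCL11 and CXCL12, read 10.20 to 10.68 in the controls and 6.98 to 7.70 in the tumours (log2 change -3.21, SE 0.17, limma adjusted p = 3.62e-07). The heparan sulfate proteoglycans Sdc2 and Sdc1, whose chains hold chemokines at cell surfaces, changed by -2.0 (SE 0.24) and -1.09 (SE 0.10), and Hs2st1, a heparan sulfate sulfotransferase, rose by 0.65 (SE 0.10).

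Signal transduction genes were called in 6 of 28 cases, 5 higher and 1 lower (list median 0.01). Gnb1, a G protein beta subunit, rose 2.00-fold (log2 change 1.00, SE 0.11) and Arrb1, the beta-arrestin that takes part in receptor desensitisation, rose by 0.84 (SE 0.13). Rgs1, which dampens signalling of chemokine receptors in lymphocytes, read 5.27 to 5.74 in the controls and 5.71, 7.27, 8.68 and 6.36 in the tumours (log2 change 1.51, SE 0.51, limma adjusted p = 0.0463). The Rgs1 call was lost without any 1 of the 4 controls (adjusted p from 0.0677 to 0.109) or without tumour 2 (0.103), with array medians subtracted (0.0547) and with an intensity trend and robust variance (0.117), in 10 of 18 alternatives in all, and without tumour 3 the change was 0.96. Jak2 changed by -0.84 (SE 0.12).

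Of 9 atypical receptors and chemokines with other symbols, Cklf rose by 0.87 (SE 0.22) and Ackr4, which removes CCL19, CCL21 and CCL25, changed by -0.77 (SE 0.18), with a list median of -0.01. The platelet chemokine genes Pf4 and Ppbp did not pass (limma adjusted p = 0.5224 and 0.3757), and both were highest among tumours in tumour 2, at 7.70 and 8.69. Of 19 inducers of chemokine genes, 2 were higher and 2 lower (list median -0.08). Among them Hif1a rose by 0.78 (SE 0.14), while the adaptor Myd88 changed by -0.87 (SE 0.12) and the tumour necrosis factor receptor Tnfrsf1a by -0.80 (SE 0.12). Of 8 other chemoattractant receptors, the sphingosine-1-phosphate receptor S1pr1, which is also an endothelial gene, changed by -1.24 (SE 0.13), and the list median was 0.06.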

How the data were processed

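Total RNA of 4 control livers and 4 MYC tumours was hybridised to Affymetrix Mouse Gene 1.0 ST arrays. The authors deposited 1 log2 value per probe set and array (34760 probe sets), made with RMA (background correction, normalisation between arrays, summarisation of probes) in R 3.0.2, per the submitters' processing notes. Settings and genome build are not given in the sources used here. Array medians lay between 6.33 and 6.44, and the number of arrays limits the precision.

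The deposited values were used as they are. The platform annotation gave 21640 probe sets with 1 symbol, 1321 with several (set aside) and 11799 with none, and 21553 of the first were updated by gene identifier to RefSeq symbols. The probe set with the highest mean was kept per gene, leaving 19937 genes. Group differences were fitted with limma 3.58.1 (lmFit, eBayes, group only) in R 4.3.3, with Benjamini-Hochberg adjustment over all genes. Named genes were the members called or above the dim range, and up to 3 called genes per pathway list. The members and lists were chosen with earlier results of these data known. The fit was tested on simulated data. Motifs were searched in 250 bases before RefSeq starts (GRCm38.p6). Same-numbered arrays were checked for pairing and did not deviate together (correlations from -0.32 to 0.05). Tables used Python 3.11.15, pandas 2.3.3 and scipy 1.17.1.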

Additional observations from a re-analysis of the deposited data

Results flagged for a closer look

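In 7 of 86 groups of 4 arrays, taken over the 43 genes above the dim range, the highest or lowest array lay far from the other 3 by Dixon's test, which chance gives for about 1 group in 20. Cxcl1 read 9.59 in control liver 1 against 7.49 to 7.79 in the other controls, and Cxcl13 read 9.35 in tumour 2 against 5.28 to 5.72 in the other tumours. The other 5 gaps were small. Ccl2 read 6.66 in control liver 3 (others 6.16 to 6.24), Ccl1 read 6.07 in tumour 4 (5.63 to 5.68), Ccl20 read 6.37 in tumour 4 (5.94 to 5.97), Cxcr1 read 6.67 in control liver 2 (6.46 to 6.48) and Ccr6 read 5.32 in control liver 2 (5.44 to 5.46).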

How the results depend on the processing

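The members called were compared over 18 alternatives, of which the fit without control livers 1 and 3 together was chosen after seeing the data. All 9 calls were kept with quantile normalisation, array medians subtracted, array weights, the replicate block, the mean of probe sets and annotation symbols. Array weights called 11 members lower (32.9% of all genes called). Replicate block fits called 4 members higher, adding Ccl3 and Ccl6 (25.1% of all genes called), and lost Rgs1 (adjusted p = 0.052), but same-numbered arrays did not deviate together, and 1 of 8 arrays correlated best with its own number. Against a 1.5-fold change, 0 members were higher and 1 lower (1 and 4 at an unadjusted p under 0.05), and 1 pathway gene was higher and 4 were lower (8.62% of all genes called). Leaving out each array gave 2 to 3 members higher, 5 to 9 lower (24.2% to 29.3% of all genes called), 8 to 10 pathway genes higher, 9 to 11 lower and member medians from -0.13 to -0.04. Without control livers 1 and 3 together 8 of the 9 calls were kept, all but Cxcl9. With the bound from olfactory and vomeronasal receptor genes 27 members were above it in controls and 25 in tumours. With the dimmest genes left out, 30 members were tested and Ccl24 was not. Of 57 named genes none that was called changed direction in any alternative run.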
